A study of Mus musculus with 9 samples.

Results

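The genes of the desmosome were followed through 3 epithelial structures of the embryonic mouse kidney. The set held 10 genes: the desmosomal cadherins Dsg2 and Dsc2, the armadillo-repeat plaque proteins Jup, Pkp1, Pkp2 and Pkp3, the plakins Dsp, Ppl and Evpl, and the membrane protein Perp. Members were chosen by name, as every probe set that the platform annotation pairs with exactly 1 gene symbol from this set. That gave 22 of the 22626 probe sets that are not controls, for 10 of 12393 genes. All 10 genes were represented, by 6 probe sets for Dsg2, 4 for Pkp2, 3 for Dsp, 2 each for Dsc2 and Pkp3, and 1 each for Jup, Pkp1, Ppl, Evpl and Perp.

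Transcripts were measured on Affymetrix MOE430A arrays in renal vesicles, s-shaped bodies and collecting ducts, with 3 arrays per structure. All samples came from wild-type mice of strain 129 at E14.5 (Theiler stage 22), with the sex of the embryos unknown. The structures were microdissected on their morphology, with staining and RT-PCR as the submitters' checks of identity, and a renal vesicle or s-shaped body sample pooled 20 structures, while the labels give each collecting duct sample a pool size of 1. RNA went through 2 rounds of T7 amplification, which favours the 3' ends of transcripts. The labels describe a replicate as a single, minimally pooled sample, so the p-values below measure the spread between such samples. A nephron starts as the renal vesicle, a small epithelial sphere, and folds into the s-shaped body, where future glomerular and tubular cells can first be told apart. The collecting duct comes from another source, the branching ureteric bud.

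A desmosome is a spot-like junction that couples the keratin filaments of neighbouring epithelial cells. Desmogleins and desmocollins bridge the gap between the cells, plakoglobin (Jup) and the plakophilins bind their tails, and desmoplakin (Dsp) ties this plaque to the keratin filaments. Ppl and Evpl are plakins that also build the cornified envelope of stratified epithelia, and Perp is a tetraspan membrane protein that p63 activates and that supports desmosomes in such epithelia. Simple epithelia, the kidney's included, are known to build desmosomes mainly from Dsg2, Dsc2, Pkp2, Jup and Dsp.

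Values below are the deposited intensity of a probe set (linear scale) where they are given per array. Differences are on the scale of log2(intensity + 26) after quantile normalization, with the standard error (SE) of the limma fit over all 9 arrays. A gene was called changed at an adjusted p under 0.05 (limma, Benjamini-Hochberg over all 22626 probe sets of a comparison), and it was counted by its probe set with the highest mean. The added 26 shrinks the differences of dim probe sets, so their folds are understated. Probe sets differ in how strongly they bind, so levels are compared between structures and never between genes.

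Most but not all marker genes followed the labels, and some samples also carried transcripts of other cells. Wt1 and Lhx1, early nephron regulators, were higher in the renal vesicle by log2 differences of 5.95 and 5.47 from the collecting duct, and Gata3, of the ureteric lineage, was lower by -2.84. Of the 11 collecting duct markers, 6 were lower in the renal vesicle and 5 in the s-shaped body, and Ret, Wnt9b, Hoxb7 and Aqp2 had no call in either. Wnt11, of the ureteric tip, was higher in the renal vesicle (1.55, adjusted p = 0.0083, limma), and the nephron marker Wnt4 was lower in the s-shaped body (-4.18, adjusted p = 5e-06). Podxl, of podocytes, was higher in the s-shaped body by 6.90, as was the endothelial Pecam1 by 1.39. The summed intensity of 11 collecting duct markers was 34680 to 47202 on the collecting duct arrays. It was 2775, 3531 and 1749 on renal vesicle replicates 1, 2 and 3, and 1381 to 1555 on the s-shaped body arrays. On the collecting duct arrays, most of this sum came from the keratins Krt8 (14726 to 25732), Krt18 (10254 to 12691) and Krt19 (6058 to 7359). The summed intensity of 5 podocyte markers was 42242 to 49595 on the s-shaped body arrays. Renal vesicle replicate 3 had a podocyte sum of 6148 against 818 and 855 on the other renal vesicle arrays, and collecting duct replicate 2 had a sum of 2398 for 4 erythroid markers against 72.5 and 133. The s-shaped body samples also held transcripts of other cells: 10 endothelial markers summed to 23070 to 29418 there, 5008 to 10199 in the renal vesicle and 559 to 734 in the collecting duct. The collecting duct samples carried urothelial transcripts, with a sum over 7 markers of 2988 to 4451 against at most 677 on any nephron array, although the urothelial markers Krt5 and Shh were never above the array median. They also carried more of the immediate-early and stress transcripts (11 genes, 45939 to 71434 against 11275 to 18774). The ratio of 3' to 5' Gapdh probe sets, a sign of RNA length, was 20.0 to 32.4 on the s-shaped body arrays and at most 18.6 on the others, while that of Actb was 30.1 to 50.9 on the s-shaped body arrays and 32.2 to 42.5 on the others. Their part in any difference was not tested. In such bulk samples, fewer cells of a type and less RNA per cell cannot be told apart.

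**Figure D1:**
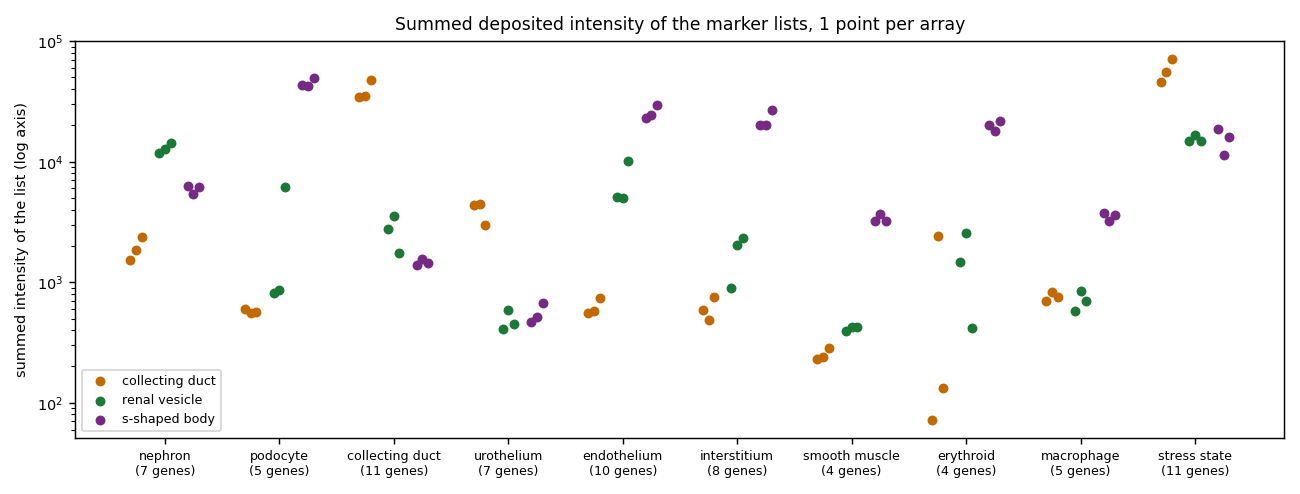
Summed deposited intensity of each marker list (log axis), 1 point per array and 1 colour per structure, with the number of genes in each list below its name. Collecting duct and urothelial lists are highest on the collecting duct arrays, and podocyte, endothelial, interstitial, smooth muscle, erythroid and macrophage lists on the s-shaped body arrays.

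Desmosome genes were lower in both nephron structures than in the collecting duct. In the renal vesicle, 7 of the 10 genes were below their collecting duct level (Dsg2, Dsc2, Pkp2, Pkp3, Ppl, Evpl and Perp), where 9.52% of all 12393 genes were called lower. In the s-shaped body, the same 7 genes and Dsp were lower, 8 of 10 against 9.72% of all genes. None of the 10 was called higher in either nephron structure by limma (0 genes also at an unadjusted p under 0.05), where 9.11% and 10.9% of all genes were called higher in the renal vesicle and s-shaped body. The deposited intensities did not overlap for 8 of the 10 genes between renal vesicle and collecting duct and for 9 between s-shaped body and collecting duct, against 36.9% and 35.4% of all genes. Both counts include Pkp1, which was never above the array median and overlapped in both comparisons after normalization. The median difference of the 10 genes was -1.70 for renal vesicle minus collecting duct and -2.0 for s-shaped body minus collecting duct, and over all genes it was -0.02 and -0.04. Both comparisons use the same collecting duct arrays, so they are not independent, and 4.95% of all genes were called lower in both. Among the 7984 genes above the array median on at least 3 arrays, a level that 9 of the 10 members reached, 13.2% and 13.1% were called lower in the renal vesicle and in the s-shaped body.

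Between the nephron stages the members went in different directions. Dsg2 and Dsc2 were lower in the s-shaped body than in the renal vesicle, 2 of 10 where 10.5% of all genes were called lower. Pkp2 alone was higher, 1 of 10 where 11.8% of all genes were called higher. Intensities of the stages did not overlap for 5 of the 10 genes, against 41.8% of all genes. These shares are near the background, so the counts by themselves say nothing about the set. Over the 3 structures, the moderated F test called 8 of the 10 genes, all but Jup and Pkp1, where it called 31.2% of all genes. Without renal vesicle replicate 3 and collecting duct replicate 2, the arrays with the odd podocyte and erythroid sums, the counts of lower genes were 6 for the renal vesicle and 7 for the s-shaped body. Evpl was the gene lost in the first comparison (adjusted p = 0.088, limma) and Dsp in the second (adjusted p = 0.051). The renal vesicle arrays kept, replicates 1 and 2, had the higher collecting duct marker sums (2775 and 3531 against 1749 on replicate 3).

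**Figure D2:**
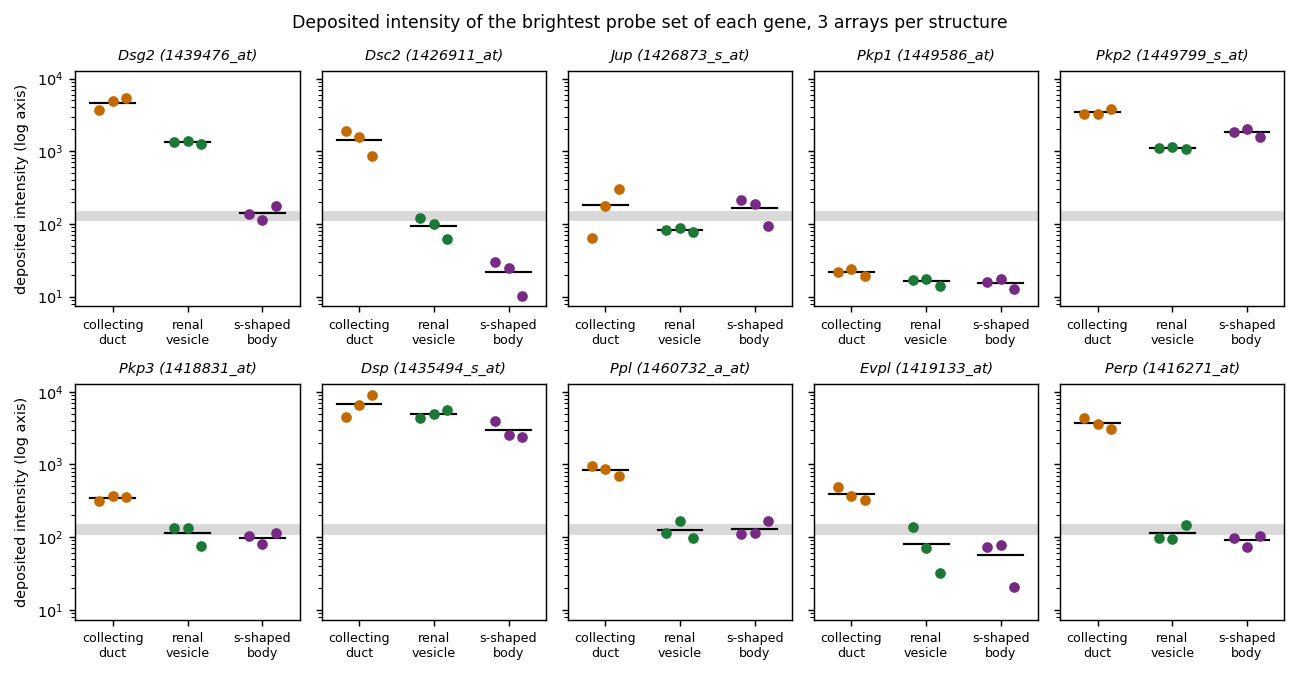
Deposited intensity (log axis) of the brightest probe set of each of the 10 genes, 1 point per array, for collecting duct, renal vesicle and s-shaped body. Perp, Ppl, Evpl and Pkp3 are high in the collecting duct and low in both nephron structures, Dsg2 and Dsc2 descend from collecting duct to renal vesicle to s-shaped body, and Pkp2 is lowest in the renal vesicle.

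The desmosomal cadherins fell stepwise from collecting duct to renal vesicle to s-shaped body. Dsg2, the desmoglein of simple epithelia, had intensities of 3708, 4831 and 5417 in the collecting duct, 1333, 1401 and 1249 in the renal vesicle, and 135, 114 and 178 in the s-shaped body (probe set 1439476_at). The 3 structures did not overlap, and every s-shaped body array was far below every renal vesicle array. The s-shaped body was lower than the collecting duct by a log2 difference of -4.85 (SE 0.18), or 28.9-fold (adjusted p = 1e-07, limma). Against the renal vesicle it was lower by -3.06 (SE 0.18), or 8.33-fold (adjusted p = 3.7e-06). The renal vesicle itself was 3.47-fold below the collecting duct (log2 difference -1.79, SE 0.18, adjusted p = 8e-05). Each step in the order of Dsg2 levels was therefore a called difference.

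The other bright Dsg2 probe set, 1449740_s_at, gave the same order. Its differences were -1.98 (SE 0.19) for renal vesicle minus collecting duct, -3.89 (SE 0.19) for s-shaped body minus collecting duct and -1.91 (SE 0.19) for s-shaped body minus renal vesicle, with limma adjusted p from 4.8e-07 to 7.8e-05. The remaining 4 Dsg2 probe sets were above the array median on at most 1 of 9 arrays. They were all lower in both nephron structures by sign, and only 1449741_at among them was called, at adjusted p = 0.041 in the renal vesicle and 0.0025 in the s-shaped body (limma, both against the collecting duct). The first of these calls was lost in 9 of 19 alternatives, among them leaving out any 1 renal vesicle array, s-shaped body replicate 2 or collecting duct replicate 3 (adjusted p = 0.062 to 0.11).

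Dsc2, the desmocollin that pairs with Dsg2 in simple epithelia, had intensities of 1878, 1553 and 856 in the collecting duct, 120, 98.7 and 61.7 in the renal vesicle, and 30.3, 24.3 and 10.3 in the s-shaped body (1426911_at). All 3 structures were separated, and only 1 nephron array, renal vesicle replicate 1, was above the median of its own array. Its level was 11-fold lower in the renal vesicle (a log2 difference of -3.45, SE 0.32, adjusted p = 5.1e-05, limma) and 29.6-fold lower in the s-shaped body (-4.89, SE 0.32, adjusted p = 2.8e-06) than in the collecting duct. The step from renal vesicle to s-shaped body was -1.43 (SE 0.32, adjusted p = 0.0096), and it was lost with a pseudocount 4 times as large (-0.71, adjusted p = 0.062). A dimmer Dsc2 probe set, 1421156_a_at, shared both falls against the collecting duct (-1.77 and -1.38, adjusted p = 0.0021 and 0.007), but between the nephron stages it differed by 0.38 in the other direction (95% confidence interval -0.25 to 1.02, adjusted p = 0.43). The order of the nephron stages for Dsc2 thus rests on 1 of its probe sets. Beside the lower Dsg2 and Dsc2 of the s-shaped body stand its higher sums for other cells: against the renal vesicle, erythroid markers were at 18047 to 21718 against 421 to 2567, interstitial markers at 19970 to 26937 against 899 to 2310, and smooth muscle markers at 3211 to 3691 against 397 to 426. The collecting duct markers went the other way, with sums of 2775, 3531 and 1749 on renal vesicle replicates 1, 2 and 3. On the s-shaped body arrays they summed to 1381 to 1555. The part of any of these transcripts in the lower Dsg2 and Dsc2 was not tested. Only 2 of the 10 members, Dsg2 and Dsc2, had this order with all 3 differences called, a pattern of 0.775% of all genes.

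Jup and the plakophilins, the armadillo-repeat proteins of the plaque, did not move together. Jup, which links the cadherins to desmoplakin and also serves adherens junctions, had intensities of 64.8, 176 and 297 in the collecting duct, 83.6, 86.7 and 77.5 in the renal vesicle, and 212, 190 and 94.5 in the s-shaped body (1426873_s_at, its only probe set). The collecting duct arrays spanned the values of both nephron structures, while the s-shaped body arrays lay above the renal vesicle arrays in deposited intensity and overlapped them after normalization. No difference was called, and the intervals were wide: -1.54 to 0.31 for renal vesicle minus collecting duct, -0.95 to 0.90 for s-shaped body minus collecting duct, and -0.34 to 1.51 for s-shaped body minus renal vesicle (95%, adjusted p = 0.39, 0.98 and 0.4, limma). The data therefore neither show a difference for Jup nor bound it closely.

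Pkp2, the plakophilin of simple epithelia and heart, was the member with its own order. Its intensities were 3291, 3268 and 3756 in the collecting duct, 1099, 1131 and 1057 in the renal vesicle, and 1853, 2040 and 1564 in the s-shaped body (1449799_s_at). Arrays of each structure kept close together, with the s-shaped body between the others and no overlap. The renal vesicle was 3.05-fold below the collecting duct (log2 difference -1.61, SE 0.13, adjusted p = 2.2e-05, limma) and the s-shaped body 1.87-fold below it (-0.90, SE 0.13, adjusted p = 0.00075). From renal vesicle to s-shaped body Pkp2 rose 1.63-fold (0.71, SE 0.13, adjusted p = 0.0038). Collecting duct above s-shaped body above renal vesicle, with all 3 differences called, was found for 0.476% of all genes. Among the Pkp2 probe sets, only 1449799_s_at had this order with all 3 differences called.

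The other Pkp2 probe sets had the same sign between the nephron stages without passing the test. Their differences for s-shaped body minus renal vesicle were 0.37 (1429183_at, adjusted p = 0.16, limma), 0.56 (1460511_at, adjusted p = 0.11) and 0.80 (1420259_at, adjusted p = 0.058). For s-shaped body minus collecting duct, 1429183_at was called lower (-0.63, adjusted p = 0.022, limma). In that comparison 1460511_at was not called (-0.49, adjusted p = 0.18), and neither was the dim 1420259_at (0.06, adjusted p = 0.92). In each of the 4 Pkp2 probe sets every s-shaped body array lay above every renal vesicle array, but these sets read the same RNA and are not separate evidence. The sums of the endothelial and interstitial markers were also higher in the s-shaped body, at 23070 to 29418 and 19970 to 26937 against 5008 to 10199 and 899 to 2310 in the renal vesicle. All 10 endothelial markers and 6 of the 8 interstitial ones were called higher there, and their part in the rise of Pkp2 was not tested.

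Pkp3, a plakophilin of stratified and many simple epithelia, had intensities of 311, 364 and 357 in the collecting duct, 132, 134 and 75.3 in the renal vesicle, and 103, 80.7 and 113 in the s-shaped body (1418831_at). Every collecting duct array was above every nephron array, and the nephron structures overlapped. It was 2.48-fold lower in the renal vesicle (a log2 difference of -1.31, SE 0.23, adjusted p = 0.0031, limma) and 3.01-fold lower in the s-shaped body (-1.59, SE 0.23, adjusted p = 0.00066). The nephron stages differed by -0.28 (95% confidence interval -0.79 to 0.22, adjusted p = 0.47). The other Pkp3 probe set, 1418832_at, was never above the array median and gave no call. Pkp1, the plakophilin of the suprabasal epidermis, was at 18.9 to 23.8 in the collecting duct, 14.1 to 17.3 in the renal vesicle and 12.8 to 17.6 in the s-shaped body (1449586_at). It was never above the array median, and its 3 differences were all between -0.16 and -0.04 with no call.

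**Figure D3:**
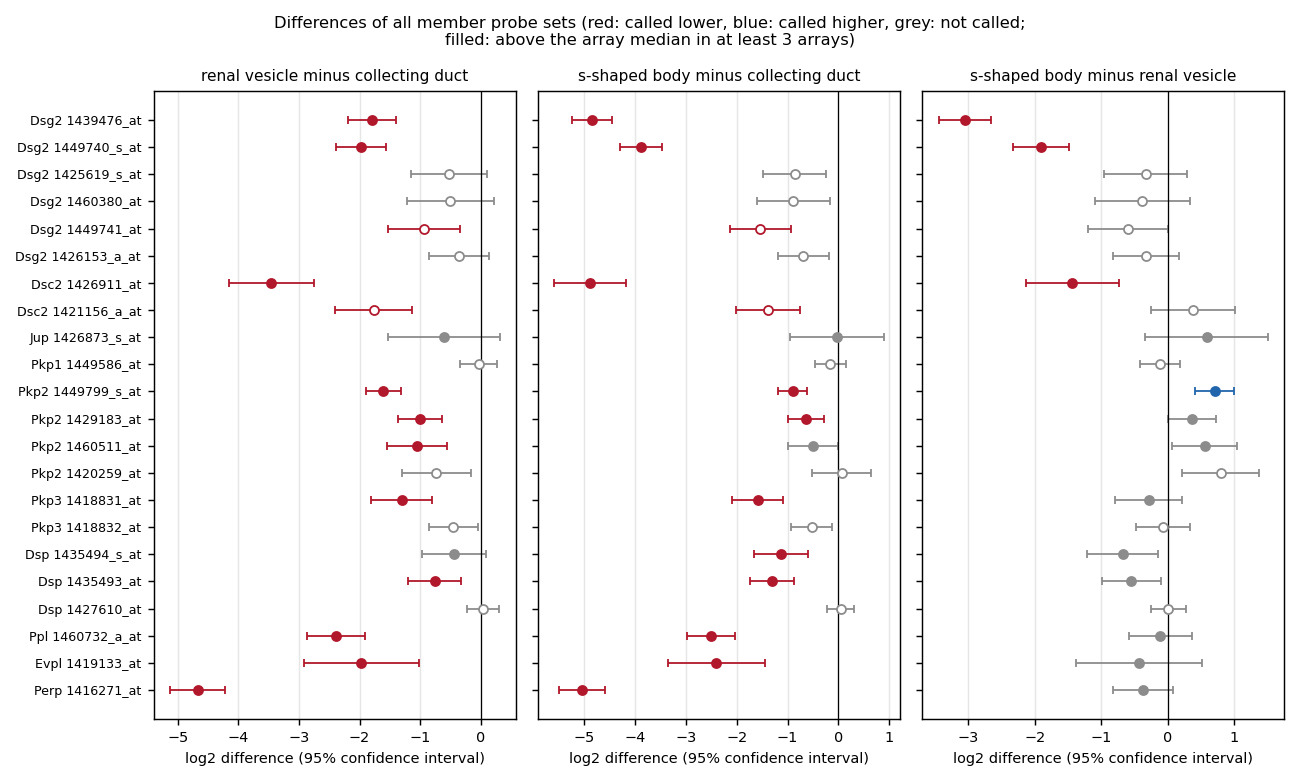
Log2 difference with its 95% confidence interval for each of the 22 probe sets in the 3 comparisons, red where called lower, blue where called higher and grey where not called, with filled points for probe sets above the array median on at least 3 arrays. Calls against the collecting duct are all to the left of 0, and the only call to the right is Pkp2 between the nephron stages.

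Dsp, the plakin that every desmosome needs to hold keratin, stayed above the array median on all 9 arrays and was called in only 1 comparison by its brightest probe set. Intensities were 4446, 6653 and 9145 in the collecting duct, 4412, 4929 and 5661 in the renal vesicle, and 4015, 2544 and 2424 in the s-shaped body (1435494_s_at). The collecting duct and renal vesicle arrays overlapped, and the highest s-shaped body array was just below the lowest of the others. The s-shaped body was 2.18-fold below the collecting duct (SE 0.24 on the log2 scale, adjusted p = 0.0081, limma). Renal vesicle minus collecting duct was -0.45 (95% confidence interval -0.98 to 0.08, adjusted p = 0.26), and s-shaped body minus renal vesicle was -0.68 (-1.21 to -0.15, adjusted p = 0.08). The second bright Dsp probe set, 1435493_at, did pass in the renal vesicle (-0.76, SE 0.20, adjusted p = 0.027), a call that was lost in 8 of 20 alternatives, among them leaving out either of renal vesicle replicates 1 and 2 or of collecting duct replicates 2 and 3 (adjusted p = 0.07 to 0.1) and under median centring (adjusted p = 0.12). The difference of Dsp between the nephron stages (1435494_s_at) became a call in 7 of 21 alternatives, among them leaving out s-shaped body replicate 1 (adjusted p = 0.026), leaving out the first collecting duct array (adjusted p = 0.038) and median centring (adjusted p = 0.027).

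Dsp and Jup were the 2 of 10 members matched among RefSeq promoter entries of 300 bases (assembly GRCm38.p6), with the entries on 1 chromosome left out. A member on that chromosome could not be matched, so the 2 genes are not a full list of members with an entry. Both encode plaque proteins that join the cadherins to keratin. Each window holds 190 bases, 170 before and 20 after the annotated start, written 5' to 3' on the gene's strand. Capitals mark the GC box GGGCGG, on either strand, and the E-box CAGGTG that Snail and Zeb repressors can bind. Dsp lies at chr13:38151124-38151313 on the plus strand and Jup at chr11:100397771-100397960 on the minus strand.
Dsp: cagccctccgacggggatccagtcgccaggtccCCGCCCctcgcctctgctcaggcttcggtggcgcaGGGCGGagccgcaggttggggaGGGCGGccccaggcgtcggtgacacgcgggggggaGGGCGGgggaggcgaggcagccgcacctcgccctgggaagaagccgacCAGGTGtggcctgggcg
Jup: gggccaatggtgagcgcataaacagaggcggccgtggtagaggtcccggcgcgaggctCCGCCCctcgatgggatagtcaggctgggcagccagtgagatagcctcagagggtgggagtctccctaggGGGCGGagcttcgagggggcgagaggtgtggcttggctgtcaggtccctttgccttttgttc
Over the full 300 bases of each entry, searched on both strands, Dsp held 4 matches to GGGCGG and 1 to CAGGTG, and Jup held 2 and 0. Of all 32851 promoters of that length, 35.7% held GGGCGG and 20.2% held CAGGTG. The letters AACCGGTT, which grainyhead factors bind, and TATAAA were in neither promoter and in 0.146% and 13.6% of all promoters. The GC content was 73.0% for Dsp and 60.7% for Jup. The arrays measured no promoter, and a match is a description of the letters only.

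Ppl and Evpl, the plakins of the cornified envelope, were higher in the collecting duct than in either nephron stage. Ppl had intensities of 951, 877 and 690 in the collecting duct, 114, 168 and 98.3 in the renal vesicle, and 109, 113 and 165 in the s-shaped body (1460732_a_at). The collecting duct stood clear of both nephron structures, which overlapped throughout. Ppl was 5.26-fold lower in the renal vesicle (a log2 difference of -2.40, SE 0.22, adjusted p = 4.5e-05, limma) and 5.68-fold lower in the s-shaped body (-2.51, SE 0.22, adjusted p = 1.8e-05). The stages themselves differed by -0.11 (95% confidence interval -0.59 to 0.37, adjusted p = 0.8).

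Evpl, which forms dimers with Ppl, had intensities of 489, 374 and 325 in the collecting duct, 139, 70.3 and 31.8 in the renal vesicle, and 73.5, 78.2 and 20.7 in the s-shaped body (1419133_at). The nephron arrays scattered widely but all lay below the collecting duct. Evpl was 3.92-fold lower in the renal vesicle (a log2 difference of -1.97, SE 0.43, adjusted p = 0.011, limma) and 5.29-fold lower in the s-shaped body (-2.40, SE 0.43, adjusted p = 0.0028). Its SE was among the widest of the set, and the interval between the stages was -1.38 to 0.52 (adjusted p = 0.57).

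Perp showed one of the widest differences of the set. Its intensities were 4392, 3593 and 3097 in the collecting duct, 96.7, 94.9 and 147 in the renal vesicle, and 97.5, 74.1 and 105 in the s-shaped body (1416271_at). All collecting duct arrays were far above all nephron arrays, and the nephron stages overlapped. Perp was 25.5-fold lower in the renal vesicle (a log2 difference of -4.67, SE 0.20, adjusted p = 4.1e-07, limma) and 32.9-fold lower in the s-shaped body (-5.04, SE 0.20, adjusted p = 1.7e-07). Between the stages the difference was -0.37 (95% confidence interval -0.82 to 0.08, adjusted p = 0.27). Pkp3, Ppl, Evpl and Perp were thus the 4 members lower in both nephron structures with no call between the stages, a pattern held by 3.7% of all genes. Their nephron values were dim, so a difference between the stages could be missed. Each was above the array median on only 1 or 2 of the 3 renal vesicle arrays. In the s-shaped body Ppl was above it on 1 array, and Pkp3, Evpl and Perp on none.

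Trp63, whose protein p63 activates Perp in stratified epithelia, had the same pattern of calls. Its intensity was 1760 to 2985 in the collecting duct, 46.2 to 82.7 in the renal vesicle and 34.3 to 48.9 in the s-shaped body. Upk3a, a urothelial plaque protein, was at 477 to 769 in the collecting duct and its log2 differences were -3.39 in the renal vesicle and -3.97 in the s-shaped body. The urothelial sum, which includes Trp63 and Upk3a and is mostly Trp63, was higher on the collecting duct arrays (3 of 7 markers called lower in each nephron structure). The stress transcripts were higher there too (10 and 8 of 11 called lower). The part of urothelial and stress transcripts in the higher collecting duct levels of Perp, Ppl, Evpl, Pkp3 and Dsc2 was not tested.

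On the 3 collecting duct arrays, members differed in which replicate had the highest deposited intensity. The array medians themselves rose over replicates 1, 2 and 3, at 125.6, 136.1 and 144.8. Collecting duct replicate 1 was highest and replicate 3 lowest for 4 members, Dsc2, Ppl, Evpl and Perp, with ratios of replicate 1 over replicate 3 of 2.19, 1.38, 1.51 and 1.42. The same arrays were highest and lowest for Trp63, at 2985, 2756 and 1760 on replicates 1, 2 and 3. Replicate 3 was highest and replicate 1 lowest for 3 members, Dsg2, Dsp and Jup, with ratios of replicate 3 over replicate 1 of 1.46, 2.06 and 4.59. Krt8 and Krt18, keratins of simple epithelia, had their highest value on that array too, with ratios of 1.75 and 1.24. Other keratins had the reverse order: on replicates 1, 2 and 3 Krt19 was at 7359, 6277 and 6058, and Krt7 at 6484, 4653 and 4497. Pkp1, Pkp2 and Pkp3 had other orders, and so had Upk3a, at 638, 769 and 477 on replicates 1, 2 and 3. After normalization Pkp1 was highest on replicate 1 and lowest on replicate 3, and Pkp3 was the reverse. The orders of these genes thus depend on the scaling. These are 3 values per gene, given as a description with no test, and the share of all genes in each order was not taken.

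**Figure D4:**
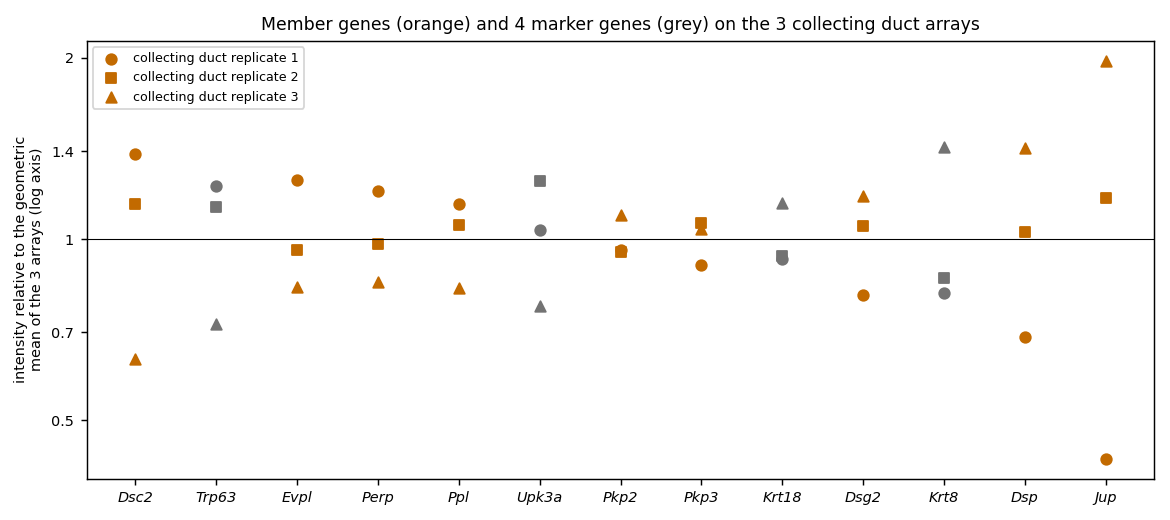
Intensity on each of the 3 collecting duct arrays relative to their geometric mean (log axis). Shown are the member genes except the dim Pkp1 (orange) and the marker genes Trp63, Upk3a, Krt8 and Krt18 (grey). Dsc2, Ppl, Evpl, Perp and Trp63 are highest on replicate 1, and Dsg2, Dsp, Jup, Krt8 and Krt18 on replicate 3. The keratins Krt7 and Krt19, highest on replicate 1, are not shown.

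Across the 9 arrays, members resembled each other to very different degrees. Pearson's r of the log2 values was 0.979 for Perp and Ppl, 0.962 for Pkp3 and Ppl, 0.958 for Dsc2 and Perp, and 0.901 for Dsg2 and Dsc2. Jup reached only -0.178 to 0.511 with the other members. The arrays form 3 separate structures, so these values mainly repeat the differences between structures and carry no test.

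The genes most like each member, among 7983 other genes above the array median on at least 3 arrays, were ranked by the same r (7984 genes for Pkp1, which is not above the median itself). Perp was closest to Ptprf (0.995), Oit1 (0.994) and the pioneer factor Foxa1 (0.993). Dsg2 was closest to Lad1 (0.996), a basement membrane anchoring protein, Sorl1 (0.995) and Wwc1 (0.992). Pkp3 was nearest to Scnn1g (0.994), a subunit of the epithelial sodium channel, Tfcp2l1 (0.991), a collecting duct transcription factor, and Plac8 (0.988).

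For Dsc2 the nearest genes were Elovl7 (0.996), Cyb561 (0.990) and Chka (0.989), and for Ppl they were Capn5 (0.994), Fa2h (0.992) and Vmp1 (0.991). Pkp2 had Atp9a (0.992), the uroplakin Upk3b (0.990) and Eid1 (0.988) as its nearest. Evpl came closest to Fancl (0.981), Akr1c13 (0.980) and Med30 (0.980). Dsp had a single gene above its other neighbours, Slc16a11 (0.980), followed by BC002059 and Usp49 (both 0.950). Jup and the dim Pkp1 had looser or unclear company: Slc39a1 (0.928), Nlrp6 (0.918) and Pafah1b1 (0.915) for Jup, and Cdc123 (0.972), Cdc73 (0.953) and Zfp568 (0.947) for Pkp1. With so many candidates and 9 arrays, a high r is reached by many genes.

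The binding partners of the desmosome were taken from lists of genes for each part of the junction. Of the other desmosomal genes, 3 were measured and only Pkp4, a plakophilin relative found at adherens junctions, was called. It was below the collecting duct in the renal vesicle by a log2 difference of -1.09 (SE 0.18, adjusted p = 0.0022, limma) and in the s-shaped body (-0.77, SE 0.18, adjusted p = 0.013). Dsc1 and Dsc3, the desmocollins of stratified epithelia, were never above the array median.

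Intermediate filaments, which the desmosome anchors, were called lower for 7 of 15 genes in the renal vesicle and 9 of 15 in the s-shaped body against the collecting duct, and higher for 1. Krt8 differed by -4.49 and -6.42 (SE 0.33) and Krt18, its partner, by -3.92 and -5.99 (SE 0.29), each with a further fall from renal vesicle to s-shaped body (-1.93 and -2.07). Krt7 differed by -4.80 and -1.82 (SE 0.23), and it rose by 2.97 between the stages, the order that Pkp2 also had. Vim, the mesenchymal filament protein, was the gene that was higher, by 2.29 in the renal vesicle and 4.76 in the s-shaped body (SE 0.33).

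Adherens junction genes split evenly, with 4 of 14 lower and 4 of 14 higher against the collecting duct in each nephron structure. The lower genes were Cdh1, Cdh16, Vcl and Nectin2 in the renal vesicle and Cdh1, Cdh3, Cdh16 and Nectin3 in the s-shaped body. The higher genes were Cdh2, Cdh4, Cdh6 and Cdh11 in the first and Cdh2, Cdh4, Cdh11 and Vcl in the second. Cdh1, the epithelial cadherin, was lower by a log2 difference of -2.10 and -5.74 (SE 0.24), in the order of Dsg2 and Dsc2. Cdh2, the neural cadherin, was higher by 5.09 and 3.51 (SE 0.20), and Cdh11 by 4.26 and 4.46 (SE 0.21). Ctnnb1, the relative of Jup that works at adherens junctions, differed by -0.12 and 0.04 with no call. Tight junction genes were lower for 9 of 11 in the renal vesicle and 8 of 11 in the s-shaped body, among them the claudins Cldn4 (-3.43 and -4.33, SE 0.30) and Cldn7 (-3.39 and -5.68, SE 0.39). The scaffold Tjp1 was the 1 gene called higher, in the s-shaped body (1.49, SE 0.15), and was at -0.34 in the renal vesicle with no call.

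**Figure D5:**
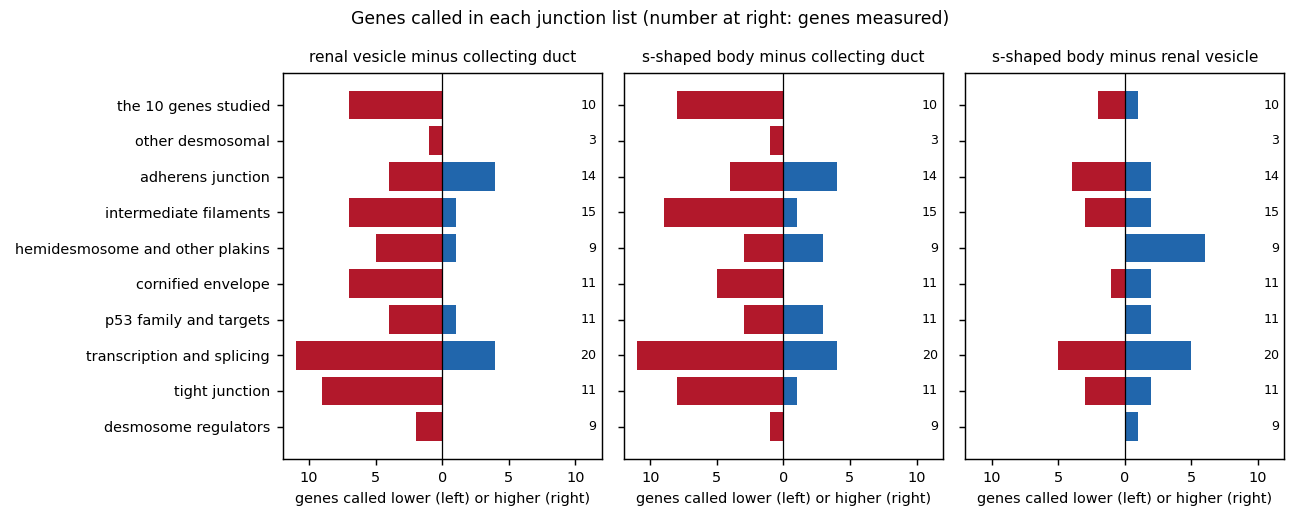
Number of genes called lower (left) and higher (right) in each junction list and in the 10 desmosome genes, for the 3 comparisons, with the genes measured at the right. Against the collecting duct, adherens junction genes have as many lower as higher calls, and so have the hemidesmosome and p53 lists in the s-shaped body. In all other cases the lower calls outnumber the higher ones, for the desmosome genes and for the other lists alike.

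The hemidesmosome, which anchors keratin to the basement membrane, and the other plakins made up a further list. Of 9 such genes, 5 (Lamb3, Lama3, Itgb4, Plec and Cd151) were lower and Itga6 was higher in the renal vesicle, against the collecting duct. In the s-shaped body 3 (Lamb3, Lama3 and Itgb4) were lower and 3 (Itga6, Dst and Macf1) higher. Itgb4 was never above the array median. Between the stages 6 of the 9 rose, where 11.8% of all genes were called higher (0 fell, also at an unadjusted p under 0.05, limma). Lamb3 and Lama3, chains of laminin-332, were lower by -3.38 and -2.25 in the renal vesicle and by -3.00 and -1.25 in the s-shaped body. The plakin Plec was lower in the renal vesicle (-1.03, SE 0.25, adjusted p = 0.02) and at 0.03 in the s-shaped body with no call, unlike Ppl and Evpl. Itga6, a laminin receptor subunit, was higher in both (0.59 and 1.17, SE 0.14).

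Cornified envelope genes other than Ppl and Evpl were lower for 7 of 11 in the renal vesicle and 5 of 11 (Tgm1, Tgm2, Sprr1a, Sfn and S100a11) in the s-shaped body, and higher for 0 (0 also at an unadjusted p under 0.05, limma). Tgm1 and Sfn were never above the array median. Sprr1a, an envelope precursor, differed by -2.86 and -2.54 (SE 0.26), S100a11 by -2.16 and -2.41 (SE 0.22) and the crosslinking enzyme Tgm2 by -1.55 and -3.76 (SE 0.20). On the p53 family list 4 of 11 genes were lower and 1 higher in the renal vesicle, and 3 were lower and 3 higher in the s-shaped body. Sesn1 was higher in both, and Trp53inp1 and Gadd45a in the s-shaped body. Trp63 differed by -4.75 and -5.22 (SE 0.23), and the p53 targets Pmaip1 by -2.04 and -1.91 (SE 0.18) and Cdkn1a by -1.35 and -1.66 (SE 0.27), all in the direction of Perp. Pmaip1 was never above the array median. Ccng1 was the other gene lower in the renal vesicle. Gadd45a, also a p53 target, differed by 0.23 (not called) and 3.20 (SE 0.34).

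Epithelial and mesenchymal transcription and splicing factors held 11 of 20 lower and 4 of 20 higher genes in each nephron structure against the collecting duct. The higher genes were Zeb1, Zeb2, Snai2 and Grhl1 in the renal vesicle and Zeb1, Zeb2, Snai2 and Twist1 in the s-shaped body. Foxa1 differed by -7.04 and -7.60 (SE 0.23) and Klf5 by -3.14 and -3.70 (SE 0.24), both without a call between the stages. Grhl2, a grainyhead factor that activates epithelial junction genes, differed by -2.07 and -2.77 (SE 0.25). Zeb1, a repressor of epithelial junction genes, was higher by 2.54 and 5.39 (SE 0.31) and rose by 2.85 between the stages. Among 9 genes that regulate desmosomes (kinases, proteases, a GTPase and calcium pumps), 2 were lower in the renal vesicle, Src (-0.90, adjusted p = 0.049, limma) and Rhoa (-0.43, adjusted p = 0.046). Only Atp2c1, the Golgi calcium pump, was lower in the s-shaped body (-0.98, adjusted p = 0.047), and none was higher than in the collecting duct in either (1 in each at an unadjusted p under 0.05). Beside the 9.52% and 9.72% of all genes called lower, counts this small say nothing about the list of regulators.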

How the data were processed

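Mouse Affymetrix MOE430A arrays were analysed, 3 for each structure. Each array had 1 deposited intensity per probe set, not on a log scale, made with GCOS (Affymetrix software, version and algorithm not given) per the submitters' processing notes. Array medians were 112.2 to 144.8, and the number of arrays limits the precision. Of 22690 probe sets, 64 controls were left out. The platform annotation gave 20380 probe sets 1 symbol, 691 several and 1555 none, and a RefSeq table (GRCm38.p6) matched 20351 of the 20380 by gene identifier and changed 0 symbols. The 20th percentile of the values, 26, served as pseudocount before log2. Array medians then spread over 0.305 log2 units, above a limit of 0.25, so the arrays were quantile normalized. Every probe set entered lmFit and eBayes (trend on intensity) of limma 3.58.1 in R 4.3.3, unfiltered and without covariates, with 6 residual degrees of freedom. Tests were two-sided with Benjamini-Hochberg adjustment, and the procedure was tested on simulated data.

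The members and the gene lists were chosen with earlier results of these data known. The text names every member with its probe sets, up to 3 genes per list by the moderated F test, genes that a count of 5 or fewer rests on, fixed anchor genes, and the 3 genes most correlated with each member. Krt5, Shh, Ctnnb1 and Grhl2 fall outside this rule and were picked after their values were seen. Probe sets ending in _s_at can match more than 1 transcript. Alternatives were other pseudocounts, normalizations, filters, probe set choices and variance models, only the groups compared, a replicate block, a minimum of 2-fold, and each array left out in turn. Leaving out both renal vesicle replicate 3 and collecting duct replicate 2 was added after seeing the data.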

Additional observations from a re-analysis of the deposited data

How the results depend on the processing

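Over 23 alternatives, 6 to 8 members fell below the collecting duct in the renal vesicle and 7 to 8 in the s-shaped body, with none above it. Leaving out 1 array at a time gave 7 and 8, and the F test then called 7 to 8 (the 2-fold minimum and the fit on only the groups compared gave no F value). The 2 genes lower in the s-shaped body than in the renal vesicle became 1 with a pseudocount 4 times as large and 1 with the mean of all probe sets of a gene, and ranged from 2 to 3 when 1 array was left out. The 1 higher gene, Pkp2, became 0 with a 2-fold minimum. A replicate block kept all these counts. The deviations of same-numbered arrays correlated at -0.06 to 0.17, with 5 of 9 pairs over 0.1 (all 3 pairs of replicate 3 among them). Not every pair passed 0.1, so the numbers were not used to pair samples.

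Signs turned only for differences that were not called, and the cause was not tested. Jup in s-shaped body minus collecting duct was 0.032 under median centring, 0.021 without normalization, 0.027 with array weights and 0.032 without renal vesicle 3 and collecting duct 2, and -0.50 to 0.38 on leaving out 1 array. The dim Dsp probe set 1427610_at was -0.098 for s-shaped body minus renal vesicle under median centring (-0.051 to 0.057 leaving out 1 array). Against the collecting duct its renal vesicle difference was -0.044 without normalization and -0.053 with array weights (-0.008 to 0.098 leaving out 1 array), and its s-shaped body difference was -0.01 with array weights. Ppl in s-shaped body minus renal vesicle was 0.029 without normalization and -0.258 to 0.059 leaving out 1 array. Leaving out 1 array also turned Pkp2 1420259_at in s-shaped body minus collecting duct (-0.031 to 0.186) and Pkp1 in renal vesicle minus collecting duct (-0.091 to 0.015). Median centring moved the median difference of all genes from -0.02 to 0.05 for renal vesicle minus collecting duct, and no normalization moved it to -0.11.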
